A study of Drosophila melanogaster with 6 samples.

Results

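The genes described here are 84 long noncoding RNAs (lncRNAs) of the Drosophila melanogaster ovary. They are the rows named as lncRNA genes by their FlyBase symbols whose mean over all 6 libraries was at least 1 CPM (counts scaled to a common library total). The table of counts held 17760 rows, 17633 for genes and 127 for transposon families, and 1940 of the gene rows were lncRNAs. Of these, 1136 had no count in any library and 88 reached 1 CPM. The rule leaves out 4 of the 88, lncRNA:flam, lncRNA:CR46206, lncRNA:CR45500 and lncRNA:CR45156, of which 2 were higher and 2 lower in homozygotes. Members were thus chosen by their mean level over both groups, so that they are expressed is no result. Levels of single libraries given below are CPM after TMM scaling, edgeR's adjustment for composition. The members nearest the bound were lncRNA:CR44889, lncRNA:CR44886 and lncRNA:CR45962 at 1.004, 1.01 and 1.02 CPM, and the rows just outside were lncRNA:CR43650, lncRNA:CR43857 and lncRNA:CR44057 at 0.972, 0.959 and 0.928 CPM.

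Polyadenylated RNA came from ovaries of flies aged 3 to 6 days, in 3 libraries of each genotype. Homozygotes were flamDeltaProm/flamDeltaProm, a promoter deletion of flamenco by its name, and wild type for the other chromosomes listed. Controls were flamDeltaProm/FM7 and wild type for the same others, so both groups carry flamDeltaProm on an X chromosome, and they differ in whether the other X is the balancer FM7, a rearranged chromosome. Effects of flamDeltaProm and of sequences on FM7 cannot be told apart. Control titles speak of a wild-type chromosome; the grouping here follows the genotype entry, which gives FM7. Nothing says that the libraries of a group came from separate pools of flies, and the spread behind each p-value may therefore be technical.

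A lncRNA is transcribed and often spliced and polyadenylated like a messenger RNA but holds no long reading frame. Some act as RNAs in the nucleus, some are hosts from which microRNAs or small nucleolar RNAs (snoRNAs) are cut, and others lie across, beside or opposite a protein-coding gene. The ovary combines germline nurse cells and oocytes, which store RNA for the embryo, with a somatic follicle epithelium, in which the lncRNA made by flamenco (flam) is cut into piRNAs against transposons.

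Libraries held 22996267, 23159557 and 23107127 counts in homozygotes and 23181058, 19564819 and 21512894 counts in FM7 controls. lncRNA:flam had 0.507, 0.251 and 0.760 CPM in homozygotes, against 1.93, 1.97 and 1.92 CPM in FM7 controls (log2 fold change -1.93, edgeR adjusted p = 0.0119). Genotypes lay apart on the first principal component (68.8% of variance), and FM7 control replicate 2 lay apart from all others on the second (12.8%). Markers of cell types and egg chamber stages moved with genotype too. Summed chorion markers, which mark the latest egg chambers, ran from 3853 to 12555 CPM in homozygotes and from 25694 to 30219 CPM in FM7 controls, though none of the 9 passed the test. Summed vitelline membrane markers ran from 2448 to 3272 CPM in homozygotes and from 5655 to 7853 CPM in FM7 controls, with 5 of 5 lower. Of 8 follicle cell markers 2 were higher and 4 lower, with sums of 251 to 270 CPM in homozygotes and 289 to 320 CPM in FM7 controls. Of 6 tested fat body markers 2 were higher and 1 lower, with sums of 2331 to 2923 CPM in homozygotes and 3802 to 4045 CPM in FM7 controls. The median log2 fold change of these 6 was 1.04, opposite in direction to the sum, so the list gave no single direction. Of 10 muscle sheath markers 7 were higher and none lower, with sums of 403 to 640 CPM in homozygotes and 280 to 345 CPM in FM7 controls. Haemocyte markers were higher for 6 of 9 tested and lower for none, with sums of 838 to 961 CPM in homozygotes and 754 to 1069 CPM in FM7 controls. Of 7 germline markers 1 was higher and none lower, with sums of 3293 to 3680 CPM in homozygotes and 3178 to 3627 CPM in FM7 controls. The part of these shifts in the results was not tested, and in bulk ovaries fewer cells of a type and less RNA per cell cannot be told apart.

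Most of these lncRNAs, 70 of 84, did not pass the test between genotypes, and the 14 that did were evenly split. In edgeR's quasi-likelihood fit over 9229 genes and transposon families, p-values adjusted by Benjamini-Hochberg and called under 0.05, 7 were higher in homozygotes (8.33%) and 7 were lower (8.33%). In either direction that is 16.7% of the lncRNAs, against 19.7% of all tested features, of which 12.0% were higher and 7.71% lower. A change of at least 2-fold with the same threshold was found for 5 lncRNAs higher and 4 lower, beside 7.29% and 1.41% of all features. All 5 of these higher lncRNAs reached a mean of 1 unscaled CPM in homozygotes but not in FM7 controls, and CR44288 and CR45668 among the 4 lower did so in FM7 controls but not in homozygotes. The rule on level thus favoured a difference in them, and nothing is read from these shares. The 3 libraries of each group did not overlap for 35 of 84 lncRNAs (41.7%), 17 higher and 18 lower, and for 41.9% of all features. Without FM7 control replicate 2, the library that stood apart, 3 were higher and 6 lower, and with any 1 library left out 2 to 5 were higher and 4 to 6 lower. Over all features, 1103 were higher and 712 lower with all libraries, and 944 and 427 without FM7 control replicate 2. With any 1 library left out, 548 to 1009 of all features were higher and 227 to 855 lower. With the 4 rows that the rule leaves out, 9 of 88 were higher and 9 lower. The median log2 fold change was 0.03 over the 84 lncRNAs (quartiles -0.24 and 0.26) and -0.01 over all tested features (quartiles -0.13 and 0.18).

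How precisely a change could be measured depended on level. Among the 23 lncRNAs at 10 CPM or more, 2 passed the test, a share of 8.70% beside 15.9% of all features at that level. The 21 others had log2 fold changes of -0.37 to 0.26, and 18 of the 23 had a 95% interval that lay within 0.5 of 0 on the log2 scale. Between 2 and 10 CPM, 6 of 28 passed (21.4%, beside 33.2% of all features), and between 1 and 2 CPM, 6 of 33 (18.2%, beside 33.9%). The median standard error of the log2 fold change was 0.09 in the highest class, 0.20 in the middle class and 0.32 in the lowest. The group in which a lncRNA reached 1 CPM matters for these counts, since a lncRNA that passed the bound through 1 group had to differ. The bound was met in both groups by 69 lncRNAs, 7 of them called, in homozygotes alone by 12, 5 of them called, and in FM7 controls alone by 3, 2 of them called.

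**Figure D1:**
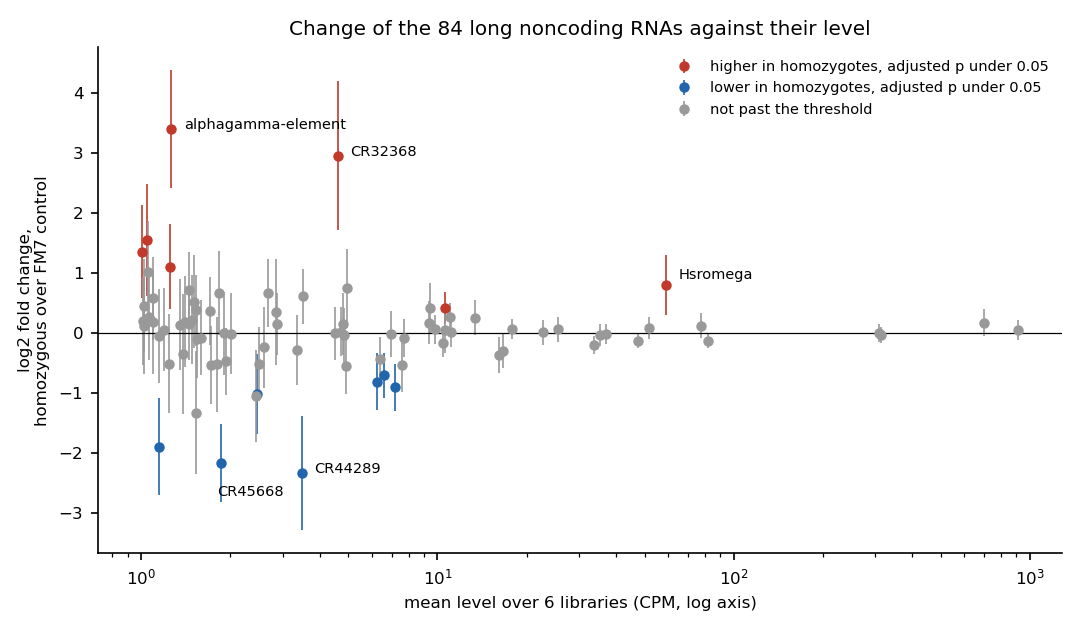
Log2 fold change, homozygous over FM7 control, of each of the 84 lncRNAs (vertical axis) against its mean level over 6 libraries (CPM, log axis), with 95% intervals as bars; red and blue points passed the test as higher and lower. Intervals narrow with level, and of the 23 lncRNAs at 10 CPM or more only CR43973 and Hsromega passed.

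The change was largest for lncRNA:alphagamma-element:CR32865 (FBgn0052865, 3R:12475336-12478267, minus strand, coordinates of the BDGP6.54 annotation throughout). The alpha-gamma elements are noncoding repeats that lie among the Hsp70 genes, share sequence with them at the regulatory region and are transcribed on heat shock. It had 1.44, 2.47 and 2.87 CPM in homozygotes, from 34, 59 and 68 counts, against 0.13, 0.21 and 0.28 CPM in FM7 controls, from 3, 4 and 6 counts. All 3 homozygous libraries lay above all 3 controls, and homozygous replicate 1 was the lowest of its group. The log2 fold change was 3.40 ± 0.43 (SE, n = 3 each, edgeR adjusted p = 0.0020), with a 95% interval of 2.42 to 4.38. The nearest coding gene, Hsp70Ba, which encodes an inducible chaperone, lies 7560 bases away and was also higher (log2 fold change 2.26, edgeR adjusted p = 0.0193). Reads of sequence shared among these repeats and genes may have been split between rows in ways the counts do not show.

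lncRNA:Hsromega (FBgn0001234, 3R:21296127-21317836, plus strand), the classical heat-inducible lncRNA, keeps hnRNP proteins in nuclear omega speckles and is made at a lower level without stress. It had 52.7, 87.2 and 84.3 CPM in homozygotes and 39.6, 44.1 and 45 CPM in FM7 controls. The groups did not overlap, and homozygous replicate 1 lay nearest to the controls. The log2 fold change was 0.80 ± 0.20 (SE, edgeR adjusted p = 0.0440). This call was the less secure of the pair. It held when homozygous replicate 1 was left out and was lost when any other library was (edgeR adjusted p up to 0.146). It was also lost in limma-voom (adjusted p = 0.0591), while DESeq2 gave 7.2e-05.

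Both stress RNAs stood beside a rise of most listed heat shock genes. Of 16 listed genes, 13 were higher in homozygotes, with a median log2 fold change of 1.74 over the list. The small chaperone genes Hsp26 and Hsp27 were lower (log2 fold changes -0.33 and -0.33), and Hsp83, the Hsp90 gene, did not pass (-0.11). Summed levels of the list overlapped, at 7670 to 8259 CPM in homozygotes and 7001 to 8214 CPM in FM7 controls. Hsp68, stv, Hsp70Aa and Hsp70Ba, given by library here, were among the 13. Relative to the mean of the FM7 controls, the alpha-gamma element stood at 6.86, 11.8 and 13.7 times in homozygous replicates 1, 2 and 3, and Hsromega at 1.23, 2.03 and 1.97 times. Hsp68, an inducible member of the Hsp70 family, stood at 3.66, 6.44 and 4.83 times, and stv, a co-chaperone gene, at 2.60, 3.74 and 3.78 times. Homozygous replicate 1 was the lowest of its group for each of these 4 genes and for Hsp70Aa and Hsp70Ba.

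**Figure D2:**
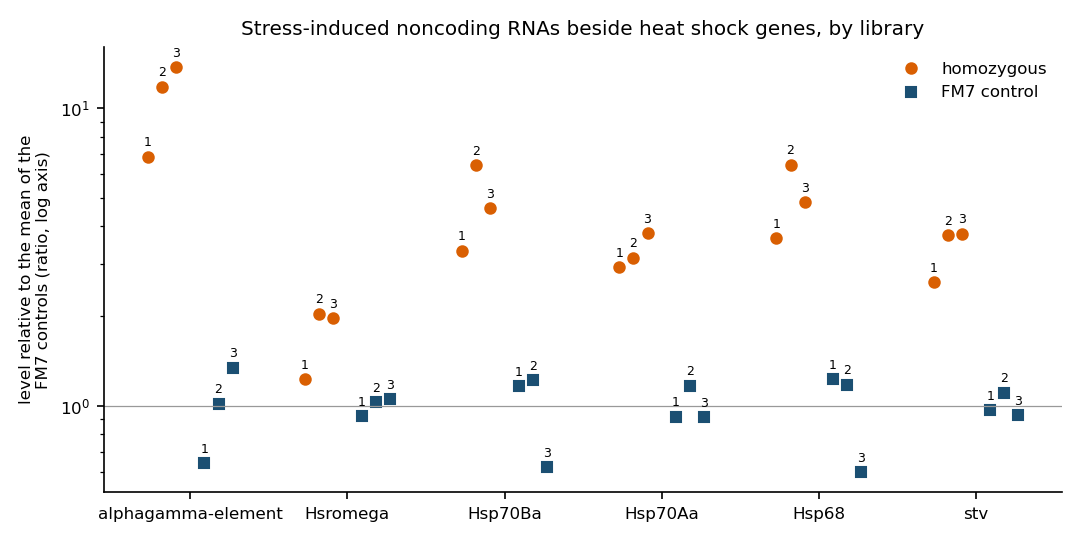
Level relative to the mean of the FM7 controls (ratio, log axis) of 2 stress-induced lncRNAs and 4 heat shock genes in each library, homozygous libraries as circles and FM7 controls as squares, numbered by replicate. The alpha-gamma element lay at 6.86 to 13.7 in homozygotes and Hsromega at 1.23 to 2.03, and homozygous replicate 1 was the lowest of its group for every gene.

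lncRNA:CR32368 (3L:7915437-7915846, plus strand) had the second largest rise. It had 5.07, 7.15 and 11.78 CPM in homozygotes and 1.79, 0.85 and 0.42 CPM in FM7 controls. The groups were well apart, and both were spread widely. Its log2 fold change was 2.95 ± 0.53 (SE, edgeR adjusted p = 0.0103). Its start lies 317 bases from that of Tmem43, a gene for a membrane protein on the other strand, which had a log2 fold change of 0.02.

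The other 4 lncRNAs that were higher had smaller changes, and each lost its call in some fits that left out 1 library. lncRNA:CR44953 (3R:29755190-29759040, minus strand) had 1.90, 1.3 and 1.39 CPM in homozygotes and 0.40, 0.85 and 0.33 CPM in FM7 controls (log2 fold change 1.54, edgeR adjusted p = 0.0319); the call was lost in every such fit but that without FM7 control replicate 2 (adjusted p up to 0.120). lncRNA:CR44889 (X:19712934-19713821, plus strand) had 1.23, 1.42 and 1.65 CPM in homozygotes and 0.76, 0.43 and 0.47 CPM in FM7 controls (1.36, adjusted p = 0.0253); leaving out homozygous replicate 2 or 3, or FM7 control replicate 2 or 3, ended the call (up to 0.104). It starts 111 bases from meso18E, which lies on the other strand, shares 112 bases of exon with it and was also higher (0.70, adjusted p = 0.0112). lncRNA:CR43651 (2R:9552844-9553940, plus strand), which holds mir-14, a microRNA that limits cell death, had 1.56, 1.97 and 1.56 CPM in homozygotes and 0.94, 0.85 and 0.56 CPM in FM7 controls (1.11, adjusted p = 0.0383); its call was lost whichever library was left out (up to 0.126). lncRNA:CR43973 (3L:15098534-15099502, minus strand), which overlaps the CTP synthase gene Ctps on the other strand without shared exon bases, had 11.3, 13.4 and 11.5 CPM in homozygotes and 8.83, 8.79 and 9.47 CPM in FM7 controls (0.42, adjusted p = 0.0386); the call held only without homozygous replicate 1 (up to 0.134 without the others). In all 4, every homozygous library lay above every control. With all libraries kept, DESeq2 did not call CR44889 (adjusted p = 0.0511), CR43651 (0.0757) or CR43973 (0.0611). It called CR44953 (0.0361), and limma-voom called all 4. Of the 14 calls, 10 were made by edgeR, DESeq2 and limma-voom alike.

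Among the lncRNAs that were lower in homozygotes, 2 form a divergent pair. lncRNA:CR44289 (3R:27535831-27537903, minus strand) and lncRNA:CR44288 (3R:27538233-27539159, plus strand) start 330 bases apart and are transcribed away from each other. lncRNA:CR44289 had 1.94, 0.96 and 0.63 CPM in homozygotes and 7.57, 6.07 and 4.22 CPM in FM7 controls. lncRNA:CR44288 had 0.72, 0.42 and 0.34 CPM in homozygotes and 1.66, 2.02 and 1.83 CPM in FM7 controls. In both, all homozygous libraries lay below all controls, and homozygous replicate 1 was the highest of its group. The log2 fold changes were -2.33 ± 0.42 for lncRNA:CR44289 and -1.89 ± 0.35 for lncRNA:CR44288 (SE, edgeR adjusted p = 0.0075 and 0.0087).

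lncRNA:CR45668 (X:5882480-5899989, minus strand) had 0.89, 0.59 and 0.59 CPM in homozygotes and 3.00, 2.93 and 3.38 CPM in FM7 controls. The groups were far apart beside their own spread, with a log2 fold change of -2.16 ± 0.29 (SE, edgeR adjusted p = 0.0024). It shares 551 bases of exon with CG16721 on the other strand and starts 872 bases from Act5C, a cytoplasmic actin gene. Neither coding gene moved with it, with log2 fold changes of 0.09 for CG16721 and 0.04 for Act5C.

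lncRNA:CR43837 (X:6995882-6997799, minus strand) had 5.50, 4.02 and 5.62 CPM in homozygotes and 9.32, 9.75 and 9.19 CPM in FM7 controls (log2 fold change -0.90, edgeR adjusted p = 0.0094). It starts 873 bases from Inx2, a gap junction gene on the other strand that had a log2 fold change of -0.06. The alpha-gamma element, CR32368, CR43837, CR45668, CR44288 and CR44289 were the 6 of 14 whose calls held in every fit without 1 library. The alpha-gamma element, CR32368, CR45668 and CR44288 reached 1 unscaled CPM only in the group where they were higher. The rule on level thus favoured a difference in them.

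The other 3 that were lower lost their calls in some of those fits. lncRNA:CR43144 (2L:21657625-21658249, plus strand) had 5.92, 4.77 and 4.48 CPM in homozygotes and 7.93, 8.15 and 8.63 CPM in FM7 controls (-0.70, edgeR adjusted p = 0.0214); leaving out homozygous replicate 2 or 3, or FM7 control replicate 1, ended the call (up to 0.0785). lncRNA:dntRL (2R:4621118-4622481, minus strand) had 4.90, 3.47 and 5.32 CPM in homozygotes and 8.96, 8.26 and 6.84 CPM in FM7 controls (-0.81, adjusted p = 0.0288); leaving out homozygous replicate 2 or 3, or FM7 control replicate 1 or 2, ended the call (up to 0.102). lncRNA:CR45893 (3L:16343189-16345241, plus strand) had 1.90, 1.09 and 1.94 CPM in homozygotes and 3.59, 3.36 and 3.05 CPM in FM7 controls (-1.02, adjusted p = 0.0413); its call was lost whichever library was left out (up to 0.123). No homozygous library reached a control in any of the 3.

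**Figure D3:**
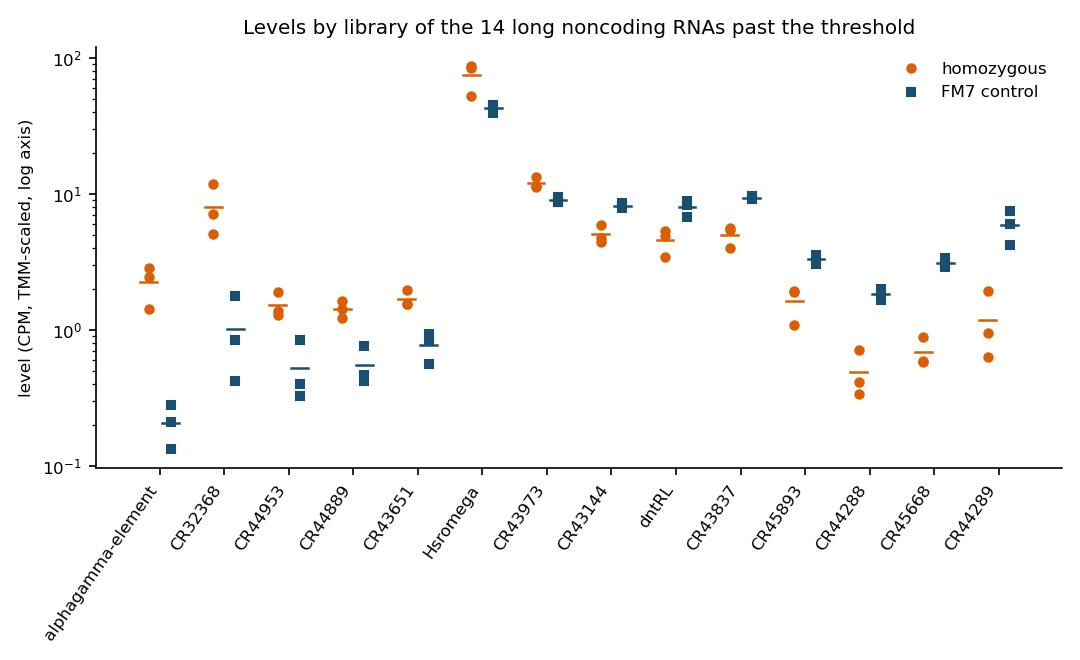
Level in each library (CPM after TMM scaling, log axis) of the 14 lncRNAs that passed the test, in order of log2 fold change, with homozygous libraries as circles to the left and FM7 controls as squares to the right; bars are group means (n = 3). The 2 groups did not overlap for any of the 14, and the gap was widest for the alpha-gamma element.

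None of the 8 lncRNAs with the highest level per length passed the test. Per kilobase of annotated exon, lncRNA:CR42491 had the highest level at 413 CPM per kb, followed by lncRNA:osk at 391, lncRNA:CR42862 at 127 and lncRNA:CR45184 at 119. lncRNA:CR40469, lncRNA:CR43685, lncRNA:CR45939 and lncRNA:CR34335 followed at 32.7, 28.6, 27.5 and 25.9 CPM per kb. The median was 3.03 CPM per kb over the 84 (range 0.393 to 413), and 19.6 over 8751 tested protein-coding genes, a level that 12 of the 84 exceeded. The first 4 held 74.2% of all counts of the 84, and the 84 held 97.3% of all lncRNA counts.

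lncRNA:osk (3R:8935716-8938395, plus strand) shares 96.4% of its exon bases with osk, the gene whose messenger RNA and protein build the germ plasm at the posterior of the oocyte. It had 901, 973 and 908 CPM in homozygotes and 867, 858 and 966 CPM in FM7 controls. The groups overlapped, with a log2 fold change of 0.05, beside -0.00 for osk (edgeR adjusted p = 0.674 and 0.981). Its counts came to 58.3% of those of osk. lncRNA:CR45184, which holds 5 snoRNAs, shares 94.7% of its exon bases with the splicing factor gene Sf3b3 and had a log2 fold change of -0.03, beside -0.02 for that gene. lncRNA:CR42491, which holds 1 snoRNA, shares 50.5% with the ribosomal protein gene RpL22, and both had a log2 fold change of 0.01. lncRNA:CR42862, on 3L, had 652, 791 and 775 CPM in homozygotes and 624, 609 and 731 CPM in FM7 controls. These groups overlapped, with a log2 fold change of 0.18 ± 0.10 (SE, edgeR adjusted p = 0.242).

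For lncRNAs inside a coding gene on the same strand, both rows can hold the same reads. Each lncRNA was put in the first of 5 classes whose condition it met. By that order 26 of the 84 shared exon bases with a coding gene on their own strand, 7 lay in its intron, 18 overlapped a coding gene on the other strand, 9 started within 1000 bases of a gene pointing away from them, and 24 did none of these. Counted in any class, 18 had such a divergent start. The calls in these classes were none higher and 1 lower, none, 2 higher and 1 lower, 1 higher and 1 lower, and 4 higher and 4 lower, in that order. By these counts 13 of the 14 called lncRNAs were among the 58 without exon overlap on their own strand, and 19.7% of all tested features were called. Those 58 had a median of 2.37 CPM per kb, and 6 of them lay above the protein-coding median. The 26 with such overlap had a median of 6.43 CPM per kb. The difference in calls between these classes, which differ in level too, was not tested.

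Across the 13 lncRNAs with at least 50% of their exon bases in the host gene, the log2 fold changes of lncRNA and host correlated at r = 0.959. These points can share reads as well as libraries. The pair of CR45893 and CG4998, at -1.02 and -1.05, lay far from 0, unlike the other pairs of this kind named with values. The correlation without it was not computed. Across the 13 with less of their exon in the host, r was 0.516, and across 17 lncRNAs and the coding gene on the other strand, r was 0.151. Rows on opposite strands share no reads only if counting used the strand, which the sources used here do not say. The called member of the overlapping class, lncRNA:CR45893, lies wholly within exons of CG4998 and had 43.9% of its counts, and CG4998 was lower by a like amount (-1.05, edgeR adjusted p = 0.0087). lncRNA:SMRG lies wholly within exons of Tis11, a gene for a protein that destabilises messenger RNAs, with log2 fold changes of 0.05 for the lncRNA and 0.12 for Tis11. lncRNA:CRG, named for regulation of the scaffold gene CASK within which it lies, had 0.19, beside 0.07 for CASK, and 1.03% of its counts. SMRG, Tis11, CRG and CASK did not pass.

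Opposite strands gave several cases in which the coding gene moved and the lncRNA did not pass. lncRNA:CR43961 had a log2 fold change of -0.55 (edgeR adjusted p = 0.0858) beside 1.64 for Ten-a (0.0114), a teneurin cell adhesion gene. lncRNA:CR45473 had -0.53 (adjusted p = 0.218) beside -1.10 for tyn (0.0034). Of the 17 lncRNAs classed as overlapping on the other strand whose coding gene was tested, 1 was called the same way on both strands (CR44889 and meso18E). None was called in opposite ways, 2 were called for the lncRNA alone and 5 for the coding gene alone. Over all tested features 19.7% were called, and nothing about such pairs is read from these counts. lncRNA:CR44097, which is in another class, shares 13 bases of exon with Hsp68 on the other strand, but all 558 of its exon bases lie within CG6000 on its own strand, so its counts can be reads of CG6000. It had 9.56, 10.1 and 9.84 CPM in homozygotes and 11.3, 11.2 and 10.6 CPM in FM7 controls (log2 fold change -0.17, edgeR adjusted p = 0.286), beside -0.23 for CG6000 (adjusted p = 0.0393) and 2.32 for Hsp68 (0.0178). The pairs named here were chosen after their values were seen.

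**Figure D4:**
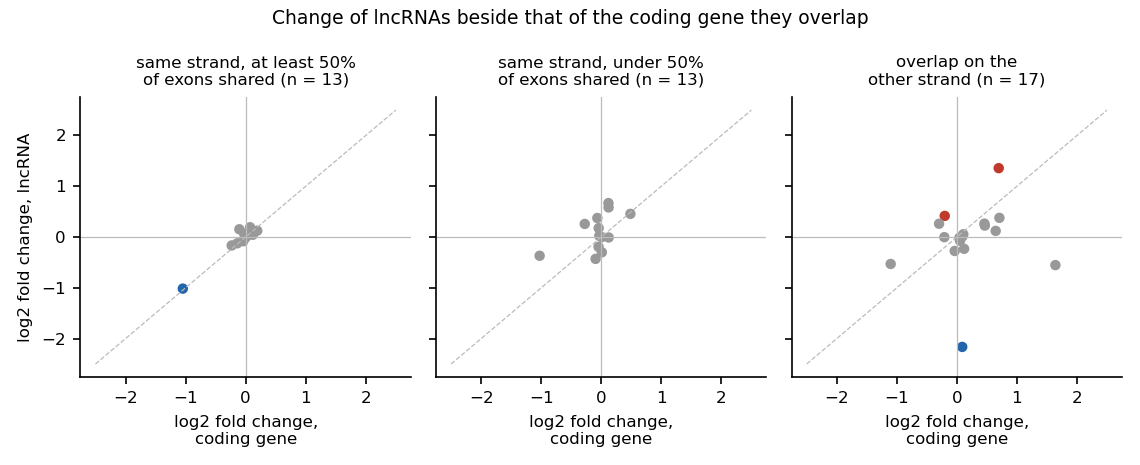
Log2 fold change, homozygous over FM7 control, of each lncRNA (vertical axis) against that of the coding gene it overlaps (horizontal axis), for 13 lncRNAs with at least 50% of their exon bases in a gene on the same strand, 13 with less, and 17 that overlap a gene on the other strand; the dashed line marks equal changes. Points follow the line in the first panel (r = 0.959) and scatter in the last (r = 0.151). The first r includes CR45893 and CG4998, a pair far from 0, and was not computed without it.

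Lists of noncoding RNAs with a known product gave 2 calls, both among the microRNA hosts. Of the 4 lncRNAs that hold a microRNA, Hsromega (mir-4951) and CR43651 (mir-14) were higher, and 12.0% of all tested features were. Both calls were lost in fits that left out a library, as given above. Nothing about microRNA hosts is read from 2 of 4. lncRNA:CR31044, which holds mir-279 and mir-996 (mir-279 limits JAK/STAT signalling in border cells), had 4.02, 4.10 and 4.52 CPM in homozygotes and 2.69, 2.72 and 2.86 CPM in FM7 controls. Its groups did not overlap, but the call was missed (log2 fold change 0.61, edgeR adjusted p = 0.0619). lncRNA:CR43836, which holds mir-31b, had a log2 fold change of -0.37 (adjusted p = 0.0793). The 2 members that hold snoRNAs are CR45184 and CR42491, above. The 7 tested Uhg genes, snoRNA hosts outside the 84, gave no call, with a median log2 fold change of -0.07 and sums of 255 to 282 CPM in homozygotes and 240 to 295 CPM in FM7 controls. lncRNA:roX1, a dosage compensation RNA of males, was near 0 in these ovaries, at 0.127 to 0.251 CPM in homozygotes and 0.0938 to 0.314 CPM in FM7 controls, and was not tested.

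The X chromosome carried 33 of the 84 lncRNAs (39.3%), beside 12.3% of all 1940 lncRNA rows and 17.6% of tested genes. Put the other way, 13.8% of the 239 X-linked lncRNA rows reached the level asked for, and 3.00% of the 1701 others. Of the X-linked members 1 was higher and 2 lower (9.09% called, beside 20.4% of all tested X-linked features). Of the 51 autosomal members 11 were called (21.6%), beside 18.4% to 20.7% of all tested features on the single autosomal arms and chromosome 4. No test was made of these shares, and the difference in calls between X and autosomes was not tested. Near flam on the X, lncRNA:CR46472 ends 105 kb from that locus and had 82.0, 76.3 and 77.8 CPM in homozygotes and 86.8, 85.9 and 84.8 CPM in FM7 controls. All homozygous libraries lay below the controls, by a small step that did not pass (log2 fold change -0.13, edgeR adjusted p = 0.116). lncRNA:CR45082, next to it, had -0.46 (adjusted p = 0.210).

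**Figure D5:**
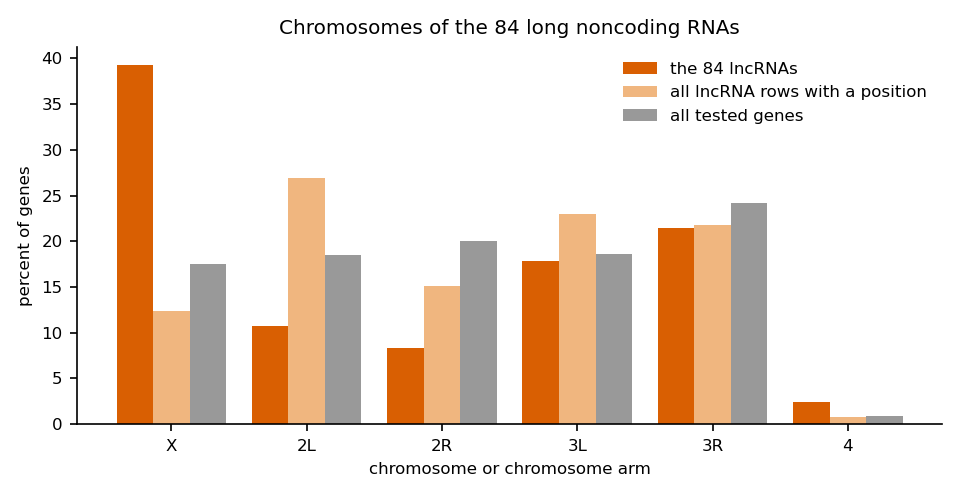
Percent of genes on each chromosome or chromosome arm for the 84 lncRNAs, all 1940 lncRNA rows and all tested genes. The X holds 39.3% of the 84, beside 12.3% of all lncRNA rows and 17.6% of tested genes.

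Summed over the 84, the lncRNAs took 0.299%, 0.331% and 0.318% of counts in homozygotes and 0.281%, 0.275% and 0.303% in FM7 controls. The groups overlapped, with means of 0.316% ± 0.0164 in homozygotes and 0.286% ± 0.0146 in FM7 controls (SD, n = 3 each, two-sided exact permutation test, p = 0.2, where 0.1 is the smallest possible). Without the 26 that share exon bases with a coding gene on their strand, the share was 0.0474% ± 0.00221 in homozygotes and 0.0425% ± 0.00015 in FM7 controls (two-sided exact permutation test, p = 0.1), and the groups did not overlap. All these shares are of unscaled library totals. TMM factors were 1.03, 1.03 and 1.03 in homozygotes and 0.963, 0.961 and 0.992 in FM7 controls, and such scaling would narrow the differences. With each share of the 58 divided by its library's factor, homozygous replicate 1 falls within the range of the controls. The groups then overlap, so their separation holds for unscaled totals only. Hsromega, itself higher in homozygotes, is among the 58 summed here, and its part in the difference was not tested.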

How the data were processed

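Strand-specific polyA libraries were made from TRIzol-extracted ovary RNA, per the labels' protocols. Values are counts that the authors deposited without normalisation, whole numbers for each gene and each transposon family. The submitters' processing notes list the tools STAR 2.7.8a, featureCounts 2.0.1 and also DESeq2 1.30.1, with no role for any. Build, annotation, and strand and overlap settings of the counting: not given in the sources used here.

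Positions came from the Ensembl 115 annotation (BDGP6.54), matched by FlyBase gene ID. The test was that of edgeR 4.0.16 under R 4.3.3 (robust quasi-likelihood, TMM scaling, filterByExpr, group as the only term, Benjamini-Hochberg over all 9229 tested features), a fit checked on simulated counts. All 84 lncRNAs were tested. Levels are TMM-scaled CPM, and the 1 CPM rule used unscaled CPM. Alternatives were DESeq2 1.42.0, limma-voom 3.58.1, other scalings and filters, other rules on level, and leaving out each library. Replicates differed beyond sampling noise and were counted singly. Genes named are the called lncRNAs, the 8 highest per kb of exon, those with a proper name, those holding a microRNA or snoRNA, the nearest to the bound and their coding partners. CR44097, CR43961, CR45473, CR46472, CR45082 and CR43250 fall outside this rule and were named after their values were seen. Members and lists were chosen with earlier results of these data known. Promoter sequences were not used here.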

Additional observations from a re-analysis of the deposited data

How the results depend on the processing

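The 34 members named with values kept their direction wherever they were called: over 15 alternatives, 433 values kept direction and side of the threshold, 56 lost the call, 3 gained it, and 18 were uncalled values that changed sign. The count of higher lncRNAs, 7, became 4 with no filter on low counts, 4 in DESeq2, 10 with a rule of 0.5 CPM and 3 with a rule of 2 CPM, and 2 to 5 without 1 library. The count of lower ones, 7, became 10 and 5 with those rules and 4 to 6 without 1 library. At 2-fold, 5 higher became 3 in DESeq2, 8 and 1 with the rules of 0.5 and 2 CPM, and 2 to 3 without 1 library. At 2-fold, 4 lower became 7 and 2 with those rules, 6 in limma-voom, 3 by library sizes alone, by upper quartile scaling, with no filter and without overlapping members, and 3 to 4 without 1 library. The median of 0.03 became 0.12 when libraries were scaled by their sizes alone, which moved the median of all features to 0.07 and the higher share of all calls to 83.0%, from 60.8%; upper quartile scaling gave 69.4%. Without 1 library it ran from 0.01 to 0.06. Without 1 library the difference in the summed share ran from 0.0223 to 0.0386 percentage points, beside 0.0299. Same-numbered libraries deviated apart (correlations of -0.30, -0.07 and -0.04), none of the 6 correlated best with its own number, and the numbers were not taken as pairs; with a replicate block, 2 were higher and 4 lower, 1 and 3 of them by at least 2-fold. Depth limits the lowest lncRNAs most: the 3 just inside the bound had 8 to 39 counts a library. All features also gave fewer calls with a replicate block, 700 higher and 349 lower, against 1103 and 712. The cause of the lost calls was not tested.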

Other observations

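Below the 1 CPM rule, 1852 lncRNA rows remained, of which 54 passed the filter on low counts. Of these, 4 were called higher in homozygotes (7.41%) and 3 lower (5.56%) in edgeR's quasi-likelihood fit. Among 714 other tested features under 1 CPM, 22.3% were higher and 2.10% lower. All 7 called lncRNAs passed the filter only through the group in which they were higher, so the calls follow in part from the filter. The counts of each are given as a description. lncRNA:marge had 15, 16 and 16 counts in homozygotes and 0, 2 and 5 counts in FM7 controls (edgeR adjusted p = 0.035). lncRNA:CR45454 had 18, 34 and 30 counts in homozygotes and 8, 10 and 4 counts in FM7 controls (adjusted p = 0.032). lncRNA:CR44357 had 19, 43 and 20 counts in homozygotes and 9, 8 and 5 counts in FM7 controls (adjusted p = 0.034), and lncRNA:CR45973 had 14, 19 and 20 counts in homozygotes and 7, 7 and 6 counts in FM7 controls (adjusted p = 0.046). On the lower side, lncRNA:CR45232 had 8, 7 and 5 counts in homozygotes and 18, 19 and 21 counts in FM7 controls (adjusted p = 0.013). lncRNA:CR45052 had 11, 4 and 7 counts in homozygotes and 20, 21 and 18 counts in FM7 controls (adjusted p = 0.029), and lncRNA:CR44111 had 6, 7 and 8 counts in homozygotes and 21, 14 and 13 counts in FM7 controls (adjusted p = 0.033).

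lncRNA:CR43250 lies 1039 bases from Ilp8, a relaxin-like hormone gene. lncRNA:CR43250 had 5.03, 1.67 and 2.87 CPM in homozygotes and 2.91, 2.18 and 2.39 CPM in FM7 controls, and Ilp8 had 48.4, 21.0 and 20.6 CPM in homozygotes and 36.1, 33.6 and 41.1 CPM in FM7 controls. For both genes homozygous replicate 1 was the highest of all 6 libraries, and neither passed the test between genotypes. The pair was picked after their values were seen, and no relation between the genes was tested.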
